A study of Gymnopus androsaceus with 9 samples.

Results

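Gymnopus androsaceus, a basidiomycete that decomposes conifer needle litter, was grown on Scots pine needles, and 9 of its 29375 listed genes formed a set whose transcript level differed many-fold between replicate microcosms of one harvest. The 9 genes were chosen by their measured levels in the 2-month and 10-month libraries. Unique gene reads were divided by median-of-ratios size factors and scaled so that the mean library held 1000000 reads, a unit called normalised reads. A gene was kept with a mean of at least 10 normalised reads over the 9 libraries, with 2-month replicate 2 at 1.5 times or more of both other 2-month libraries, and with 10-month replicates 1 and 2 each at 2 times or more of 10-month replicate 3. The rule allowed for up to 150 genes, and 9 of the 9801 genes with a sufficient mean met it. All differences that the rule used are given as descriptions, with no test.

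The samples were mycelium harvested after 2, 5 and 10 months in sealed microcosms, with 3 biological replicates and so 3 libraries per harvest. In every group the needles had been mixed with sand and sterilised by gamma radiation, inoculated with a needle that already carried the fungus, and given an ammonium chloride solution. No strain is named in the labels, no group was grown on anything else, and the growth protocol lists more replicate microcosms per harvest than were sequenced. The files identify genes by JGI protein ID and pair no ID with a product name, so what the 9 genes encode is not stated here, and the labelled mycelium could not be checked against marker genes.

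As background, G. androsaceus is known as a coloniser of fallen conifer needles that spreads by thin black cords. Litter-decomposing basidiomycetes secrete enzymes that break down cellulose and lignin and take up the products, and a mycelium on litter holds growing edges, older parts and sometimes cords or fruiting structures with different transcript pools. In libraries of whole mycelium, a lower level from fewer cells of one kind and from less RNA per cell cannot be told apart. Because a library is a fixed pool of reads, a few very abundant transcripts also lower the shares of all others, which is why levels are given relative to size factors.

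The libraries held between 21939600 and 96533143 unique gene reads and between 20782 and 22641 genes with a unique read. In 3 libraries, 2-month replicate 2 and 10-month replicates 1 and 2, the 9 genes together took over 10% of all unique reads. The rule used this difference. At 10 months these were the deepest libraries of the series, with 96533143 and 81664375 reads against 60591632 in replicate 3. At 2 months replicate 2, with 30205968 reads, lay between replicates 1 and 3, which had 51907213 and 21939600. At 5 months replicate 3 had the fewest reads, 29885380 against 61180124 and 78159105 in replicates 1 and 2. The 10 most abundant other genes took 5.08% of the reads outside the set in 2-month replicate 2, 6.32% in 10-month replicate 1 and 8.32% in 10-month replicate 2, against 5.30% to 7.29% in the other 6 libraries. The part of depth or of RNA quality in the result was not tested.

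The set made up from 1.26% to 32.2% of a library. At 2 months its share was 6.90% in replicate 1, 25.1% in replicate 2 and 3.37% in replicate 3. At 5 months it was 1.40%, 1.48% and 2.30% in the same order, and at 10 months 17.4%, 32.2% and 1.26%. The 5-month libraries were thus all low, while both other harvests held libraries with high and low shares. The widest 95% Wilson interval of these shares spanned 0.0309 percentage points, which covers counting error only. In 10-month replicate 2 the set held 6 of the 10 genes with most unique reads, and in 10-month replicate 3 it held none of them.

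**Figure D1:**
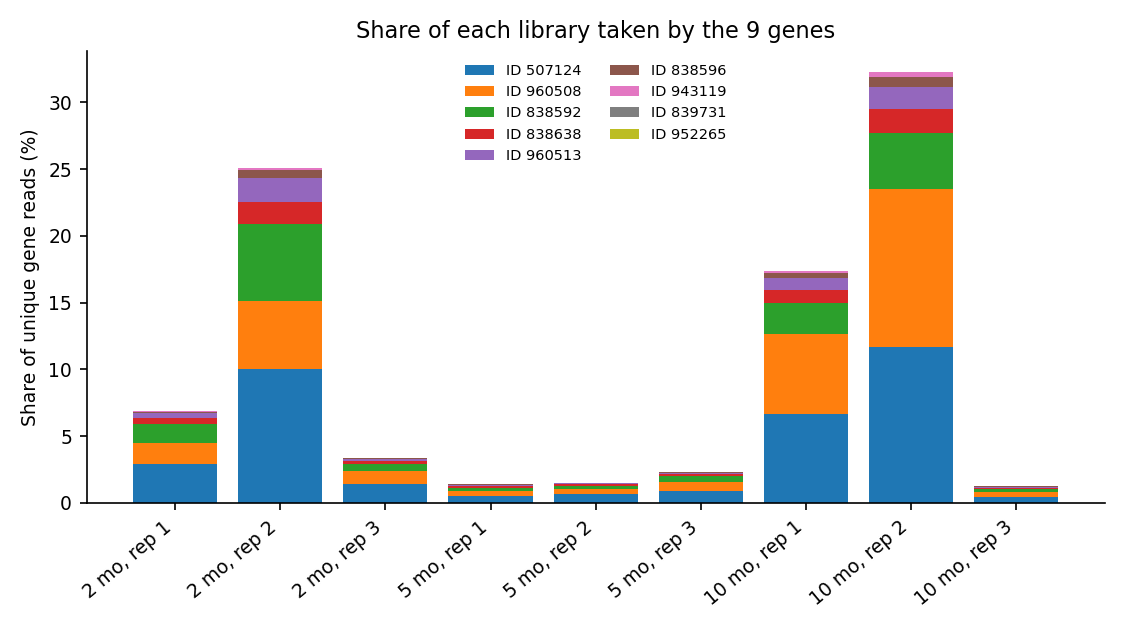
Share of unique gene reads (percent, vertical axis from 0) taken by each of the 9 genes, stacked, in each of the 9 libraries. The stacks reach 25.1% in 2-month replicate 2, 17.4% in 10-month replicate 1 and 32.2% in 10-month replicate 2, and stay at or under 6.90% in the other 6.

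The most abundant members were JGI protein IDs 507124, 960508 and 838592. ID 507124 stood at 24171, 103184 and 12310 normalised reads in 2-month replicates 1, 2 and 3, at 3920, 5618 and 7423 in the 5-month replicates, and at 74198, 195628 and 4133 in the 10-month replicates. It was the gene with most unique reads in 4 of the 9 libraries and never below place 11. The means were 46555 ± 49400 normalised reads (SD, n = 3) at 2 months, 5654 ± 1752 (SD, n = 3) at 5 months and 91320 ± 96889 (SD, n = 3) at 10 months, so that at 2 and 10 months the SD exceeded the mean.

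ID 960508 stood at 13234, 51754 and 8317 normalised reads at 2 months, 3263, 2853 and 5566 at 5 months, and 67616, 196637 and 4050 at 10 months. ID 838592 stood at 11727, 59602 and 4801 at 2 months, 2212, 1950 and 3992 at 5 months, and 26061, 70148 and 2117 at 10 months. In both genes 10-month replicate 3 lay within the range of the 5-month libraries, below every 2-month library. ID 507124, too, had its 10-month replicate 3 within the 5-month range.

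The next members by level were IDs 838638, 960513, 838596 and 943119. ID 838638 had 3620, 16168 and 1818 normalised reads at 2 months, 1021, 823 and 1398 at 5 months, and 10230, 30173 and 1052 at 10 months. ID 960513 had 3192, 18967 and 1300 at 2 months, 750, 606 and 577 at 5 months, and 10301, 27504 and 827 at 10 months. These 2 genes had similar levels in most libraries, but ID 960513 was the more uneven of them at 2 months, where replicate 2 was 14.6 times replicate 3, against 8.89 times for ID 838638.

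ID 838596 had 1131, 5649 and 533 normalised reads at 2 months, 217, 188 and 391 at 5 months, and 4275, 12967 and 288 at 10 months. ID 943119 had 462, 1949 and 207 at 2 months, 86.9, 83.0 and 13.8 at 5 months, and 2030, 5624 and 125 at 10 months. ID 943119 had the widest range of the set over all libraries, its highest value being 407 times its lowest.

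The last 2 members were far less abundant. Their uneven levels at 2 and 10 months are what the rule asked for. ID 952265 met the required mean of 10, with 11.1, only through 10-month replicates 1 and 2. In every other library it was below 10. ID 839731 had 14.6, 45.8 and 7.72 normalised reads at 2 months, 2.66, 3.74 and 0.535 at 5 months, and 94.3, 181 and 4.48 at 10 months. ID 952265 had 2.27, 7.64 and 2.10 at 2 months, 0.589, 0.314 and 0.535 at 5 months, and 17.7, 67.9 and 1.03 at 10 months. The 5-month values of ID 952265 rested on 44, 30 and 19 reads, so their exact 95% Poisson intervals, 0.428 to 0.791, 0.212 to 0.448 and 0.322 to 0.836 normalised reads, overlapped.

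**Figure D2:**
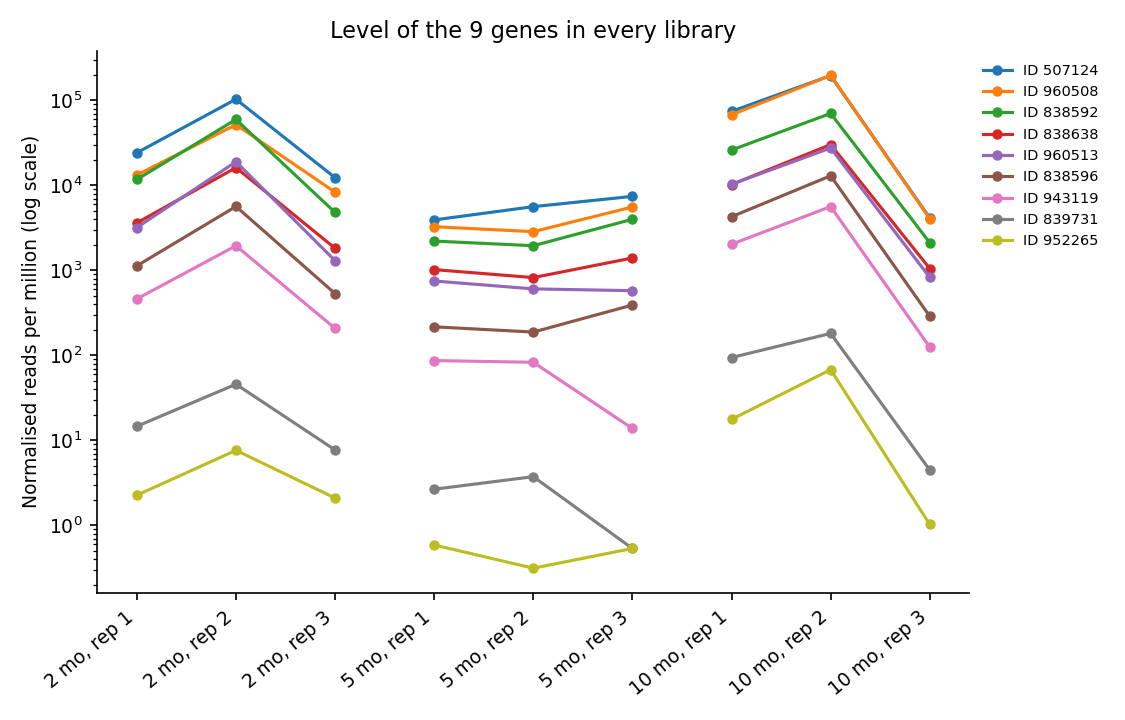
Normalised reads (log scale) of the 9 genes in every library, with 1 point per gene and library and lines joining the libraries of a harvest only to guide the eye. Each gene peaks in 2-month replicate 2 within its harvest and in 10-month replicate 2 over all libraries, and the 5-month libraries and 10-month replicate 3 hold the lowest values, from 0.314 to 7423.

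The set was sharply bounded by the 2 ratios of the rule, but not by the required mean. The ratio of 2-month replicate 2 to the higher of replicates 1 and 3 ran from 3.13 (ID 839731) to 5.94 (ID 960513) in the members, and the ratio of the lower of 10-month replicates 1 and 2 to replicate 3 ran from 9.73 (ID 838638) to 21.0 (ID 839731). The members just inside the limits were IDs 839731 and 952265, at 3.13 and 3.37 for the first ratio, so that no member came near the limits of 1.5 and 2. The genes just outside were IDs 952603 and 1021738, with a first ratio of 1.43 and 1.41 and a second ratio of 2.12 and 2.07. These last had means of 10.9 and 10.4 normalised reads, near the lowest level allowed. The member ID 952265 was near that level too, with a mean of 11.1.

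The 2-month part was met by 273 genes, or 2.79% of those with a sufficient mean, and the 10-month part by 19, or 0.194%. The 9 members were 3.30% of the former and 47.4% of the latter. In the 264 genes that met only the 2-month part, the median ratio of the lower of 10-month replicates 1 and 2 to replicate 3 was 0.845, beside 0.900 in all 9801 genes; leaving out the members, which met both parts, keeps such values low. The 10 genes that met only the 10-month part reached a ratio of 5.11 at most, in ID 974627, which at 2 months was lowest in replicate 2, at 64.6 normalised reads against 139 and 113. These figures describe the choice and were not tested.

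**Figure D3:**
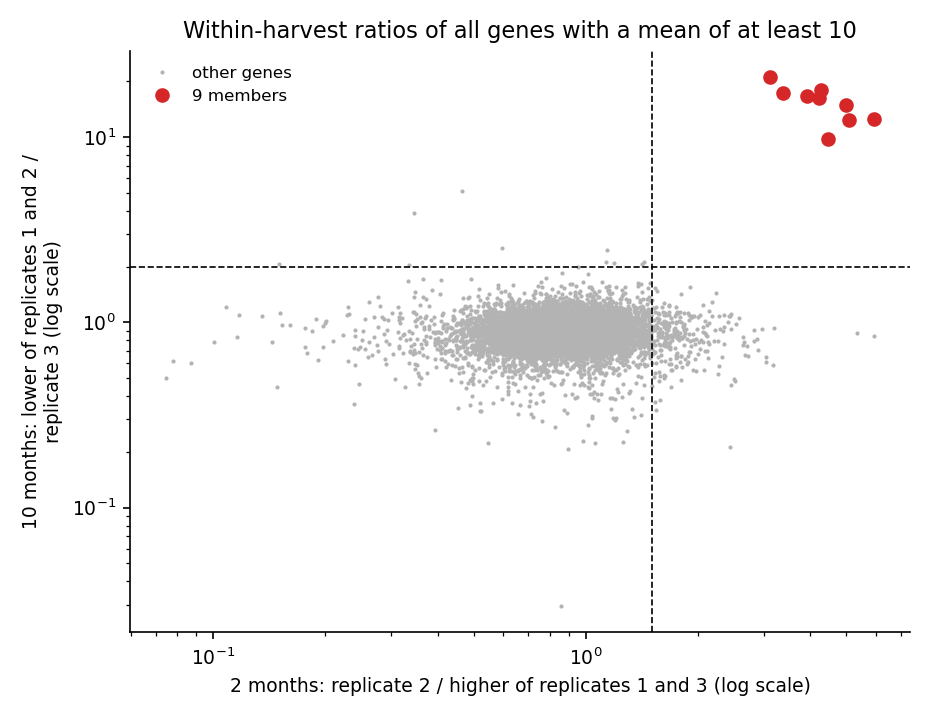
Ratio of 2-month replicate 2 to the higher of replicates 1 and 3 (horizontal, log scale) against the ratio of the lower of 10-month replicates 1 and 2 to replicate 3 (vertical, log scale) for the 9801 genes with a mean of at least 10; dashed lines mark the limits of 1.5 and 2. The 9 members lie at 3.13 or more and 9.73 or more, apart from all other genes, and their place is set by the rule.

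When the required mean was lowered to 1, another 5 genes met the rule. In 2 of them, IDs 1007789 and 1077001, the 4 lowest libraries and the highest library were the same as in the members. In both, 10-month replicate 2 exceeded replicate 1 and 2-month replicate 1 exceeded replicate 3, as in the members. ID 1007789 had 2.25, 16.1 and 1.54 normalised reads at 2 months, 0.187, 0.617 and 0.0282 at 5 months, and 4.44, 18.6 and 0.380 at 10 months. Its ratios were 7.15 at 2 months and 11.7 at 10 months, inside the range of the members or above it, but its 5-month values rested on 14, 59 and 1 reads. ID 1077001 had 9.11, 14.0 and 7.40 normalised reads at 2 months, 2.32, 1.60 and 3.35 at 5 months, and 8.47, 16.0 and 3.70 at 10 months. Its ratios of 1.53 and 2.29 were below those of every member. Unlike in the members, its 10-month replicate 1 lay below its 2-month replicate 1. Both genes were chosen after their values were seen.

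The order of some libraries was left free by the rule. Level in 10-month replicate 2 exceeded that in replicate 1 in 9 of 9 members, by 1.92 to 3.84 times, where 56.4% of the 9801 genes had that order. Level in 2-month replicate 1 exceeded that in replicate 3 in 9 of 9, by 1.08 to 2.46 times, where 46.8% of genes had that order, and both orders were seen together in 31.9% of genes. The smallest of these differences, 1.08 times in ID 952265, rested on 141 and 53 reads. The highest of all 9 libraries was 10-month replicate 2 in each member, against 26.6% of genes, a share from which nothing is read because the rule kept 2-month replicates 1 and 3 and 10-month replicate 3 from that place. Scaled to library totals alone, or to totals outside the set, it was the highest in 7 of the 9. The members vary together, so they are not 9 independent observations.

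In every member the 4 lowest libraries were the 5-month libraries and 10-month replicate 3, an arrangement seen in 1.46% of the 9801 genes. The rule itself asked for a low 10-month replicate 3 and a raised 2-month replicate 2, so nothing is read from that share. Above them came 2-month replicate 3 and then 2-month replicate 1, again in 9 of 9. Places 2 and 3 were shared by 2-month replicate 2, which was the higher in 5 members, and 10-month replicate 1, which was the higher in 4. The 4 lowest libraries were the same under the 4 other scalings or read counts tried. The rule fixed that 10-month replicate 3 was low beside the others of its harvest, but not that it lay below every 2-month library.

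The 5-month libraries entered the rule only through the mean and the size factors. Every 5-month library lay below every 2-month library in 9 of 9 members, where 20.8% of genes showed this. Nothing is read from that share. The rule used the 2-month libraries and raises replicate 2, and its mean can be met through high 2-month and 10-month values alone. The 5-month mean was 0.202 to 0.299 of 2-month replicate 1 in 7 members and lower, at 0.133 and 0.158, in IDs 943119 and 839731. Against 10-month replicate 3 it ran from 0.467 times (ID 952265) to 1.37 times (ID 507124), so that this late library was at about the 5-month level in the more abundant genes. Every 5-month library was below 2-month replicates 1 and 3 and 10-month replicate 3 in 4 members, namely IDs 960513, 943119, 839731 and 952265, against 15.8% of genes, and in 2 members when scaled to library totals. Without 5-month replicate 3 the count was 7. The rule used the 2-month and 10-month libraries compared here, so nothing is read from the 15.8% either.

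The members were also uneven among the 5-month libraries, in which they had not been chosen. The highest 5-month library was at least 1.5 times the lowest in 8 of 9 members, against 21.3% of genes, and at least 2 times in 4 of 9, against 4.18%. The median of this ratio was 1.95 in the members, 1.29 in the 9801 genes, 1.43 in the genes that met only the 2-month part and 2.56 in the 10 that met only the 10-month part. Of those 10 genes, 8 reached 1.5 times and 5 reached 2 times, so this spread was not particular to the members. In the genes that met only the 2-month part the shares were 42.0% and 11.4%. The members vary together, so 8 of 9 does not count independent observations, and the 8 include ID 952265 with its few reads. Most of the spread in the members came with 5-month replicate 3, the library of that harvest with the fewest reads. Without it the median was 1.24 in the members, and the ratio reached 1.5 in 1 of 9 members, ID 952265 on 44 and 30 reads, against 4.95% of genes, and 2 in 0 of 9, against 1.08%. It was the highest 5-month library in 5 of 9 members, IDs 507124, 960508, 838592, 838638 and 838596, near the 43.7% of all genes.

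At 5 months the set split. In the 5 genes just named replicate 3 was 1.37 to 1.89 times replicate 1. In IDs 960513 and 952265 it was 0.769 and 0.909 times replicate 1. In IDs 943119 and 839731 it was 0.159 and 0.201 times replicate 1, a difference in the opposite direction. These 2 genes had 490 and 19 reads there against 6489 and 199 in replicate 1, with exact 95% Poisson intervals of 12.6 to 15.1 against 84.8 to 89.0 normalised reads for ID 943119 and 0.322 to 0.836 against 2.31 to 3.06 for ID 839731. The gap was therefore larger than counting error in both. A level in 5-month replicate 3 that was at least 4-fold below both other 5-month libraries was found in 8 of the 9801 genes (0.0816%), of which these were 2. This limit, library and direction were not planned and follow these 2 genes, so nothing is read from that share. With 1 library on the low side there is no replicate of it, and the cause was not tested. ID 1007789, below the mean required, was at 1 read in this library as well.

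Ratios between members within a library do not depend on the scaling. Relative to the reads of ID 507124, IDs 960508, 838592, 838638, 960513 and 838596 varied 1.66-fold to 2.57-fold over the 9 libraries, whereas their own levels varied 36.0-fold to 68.9-fold. IDs 943119 and 839731 varied 16.3-fold and 17.6-fold relative to ID 507124, which became 2.05-fold and 2.86-fold without 5-month replicate 3. ID 952265 varied 6.22-fold with or without that library, from 0.00558% to 0.0347% of the reads of ID 507124.

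Relative to ID 507124, the reads of some members differed between 2 and 10 months. ID 960508 had 54.8%, 50.2% and 67.6% as many reads as ID 507124 in the 2-month libraries, 83.3%, 50.8% and 75.0% in the 5-month libraries, and 91.1%, 101% and 98.0% in the 10-month libraries. The 2-month and 10-month values did not overlap, although 10-month replicate 3 held little of the set and replicate 2 the most. The same separation, higher at 10 than at 2 months in every library, held for 5 of the 8 other members: IDs 960508, 838596, 943119, 839731 and 952265. Of all genes with a sufficient mean, 1.5% were so separated relative to ID 507124. Nothing is read from that share, because the members were chosen to vary along with ID 507124 and the other genes were not, and the 2-month and 10-month libraries are those the rule used. ID 943119 had between 1.69% and 1.91% as many reads as ID 507124 at 2 months and between 2.74% and 3.03% at 10 months. ID 839731 had between 0.0444% and 0.0627% at 2 months and between 0.0927% and 0.127% at 10 months. IDs 838592, 838638 and 960513 overlapped between these harvests. The median of ID 838592 was lower at 10 months, at 35.9% against 48.5% at 2 months. Those of IDs 838638 and 960513 were 15.4% against 15.0% and 14.1% against 13.2%. All these values have the same gene as divisor, so the 5 separations are not separate observations. No p is given, because the comparison gene and its partners belong to one chosen set, and 3 libraries against 3 cannot give an exact two-sided permutation p under 0.10.

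**Figure D4:**
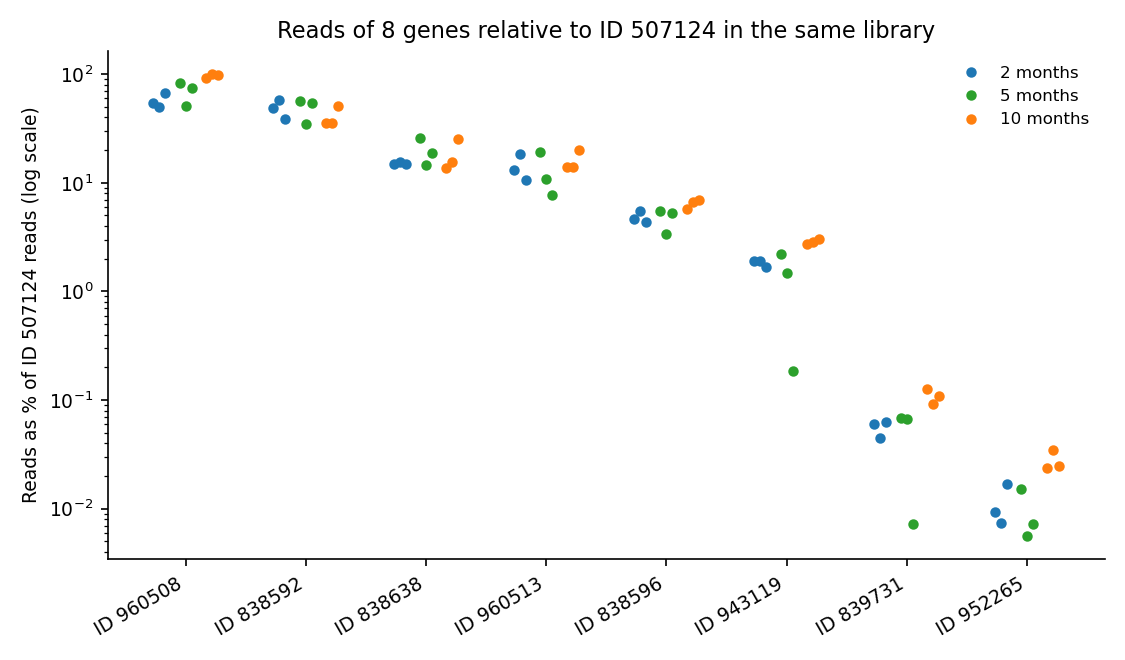
Unique reads of 8 members as a percentage of the reads of ID 507124 in the same library (log scale), with 1 point per library coloured by harvest. At 10 months ID 960508 lies at 91.1% to 101% against 50.2% to 67.6% at 2 months, and the single low 5-month points of IDs 943119 and 839731 are replicate 3.

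The members were short transcripts and, like most genes, had nearly no shared reads. Their lengths, implied by the deposited counts and RPKM, were 907 bases for ID 507124, 732 for ID 960508, 420 for ID 838592, 168 for ID 838638, 195 for ID 960513, 162 for ID 838596, 645 for ID 943119, 207 for ID 839731 and 881 for ID 952265. The median was 420 bases, against 1340 for the 9801 genes, whose middle 50% ran from 923 to 1888. All 9 members were thus shorter than the lower quartile of those genes. Reads that also mapped to another gene were at most 0.000986% of total gene reads in any member, and 2 members had none. This was common, as 5046 of the 9801 genes had none and their median was 0%. Over 1% such reads were found in 14.8% of them.

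Per transcript length, short and long members were found among both the higher and the lower values. By the authors' RPKM, ID 960508 reached 158785 in 10-month replicate 2, ID 507124 127490, ID 838638 106159, ID 838592 98722 and ID 960513 83370 in the same library. These 5 genes held the 5 highest RPKM values of that library, and ID 838596 followed at 47312. ID 943119 reached 5154, ID 839731 518 and ID 952265 45.6 RPKM, so the set spanned more than 3 orders of magnitude in level. In 10-month replicate 3, ID 838638 was the highest of the set at 6119 RPKM, followed by ID 960508 at 5408 and ID 838592 at 4927. RPKM is scaled to each library's total, and with 32.2% of a library in the set these values are not comparable between libraries in the way normalised reads are.

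Differences between harvests were tested with edgeR's quasi-likelihood test over all 20168 genes that passed a low-count filter, which all 9 members did. The rule used the 2-month and 10-month libraries, so the counts are printed beside those of all genes and nothing is read from them. At 10 against 5 months 4 members were called higher at a Benjamini-Hochberg adjusted p under 0.05, where 18.1% of all genes were called and 9.94% were called higher. On the log2 scale ID 952265 was higher by 5.91 ± 1.42 (SE; edgeR, adjusted p = 0.0251) and ID 943119 by 5.38 ± 1.53 (SE; edgeR, adjusted p = 0.0455). ID 839731 was higher by 5.26 ± 1.38 (SE; edgeR, adjusted p = 0.0347) and ID 960508 by 4.50 ± 1.25 (SE; edgeR, adjusted p = 0.0376). The other 5 had log2 fold changes of 3.57 to 4.44 and missed the threshold by edgeR, with adjusted p from 0.0567 to 0.0880. Every 10-month library lay above every 5-month library in 4 members, IDs 960513, 943119, 839731 and 952265, a separation seen in 30.7% of the 9801 genes.

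At 5 against 2 months no member passed by edgeR, where 20.7% of genes did, with log2 fold changes from -3.84 (ID 943119) to -2.66 (ID 960508), SEs of 1.14 to 1.42 and adjusted p from 0.0918 to 0.139. All 9 had an unadjusted p under 0.05 by edgeR, as did 7048 of the 20168 genes tested. DESeq2 called all 9, and 5131 of 24884 genes in all. At 10 against 2 months no member passed by edgeR, where 33.1% of genes did. The log2 fold changes ran from 0.34 (ID 838592) to 2.83 (ID 952265), with edgeR adjusted p from 0.108 to 0.846. By edgeR 1 member had an unadjusted p under 0.05, as did 8712 of the 20168 genes. DESeq2 called 1 member, and 7367 of 24884 genes in all. Over the 3 harvests, 3 members were called by edgeR's F test, IDs 952265, 839731 and 960508 (adjusted p = 0.0222, 0.0379 and 0.0420), where 38.4% of genes were. The medians over the members were -3.21, 4.44 and 1.23 for the 3 comparisons in the order 5 against 2, 10 against 5 and 10 against 2 months, against -0.01, -0.03 and -0.03 over all genes tested. The comparisons share libraries.

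Whether a member was called depended on single libraries. The rule set 10-month replicate 3 and 2-month replicate 2 apart within their harvests, so leaving out either removes spread that the choice built in. Nothing is read from the member counts that follow. Without 10-month replicate 3 all 9 were called at both 5 against 2 and 10 against 5 months, where 3492 and 2167 of 20356 genes were. Without 10-month replicate 2 no member was called in any comparison. That fit called 4053, 2063 and 4998 of 20389 genes at 5 against 2, 10 against 5 and 10 against 2 months. Over the 3 harvests it called 6051. Without 2-month replicate 2 all 9 were called at 10 against 5 months, where 3916 of 20403 genes were. Without any one 5-month library no member was called there, and 2072 to 2847 genes in all were. Leaving out 10-month replicate 1, 2-month replicate 1 or 2-month replicate 3 left 1, 2 and 2 members called at 10 against 5 months. All genes called there were then 2980, 3866 and 3982. Without the 3 libraries in which the set took over 10% of reads, an alternative added after seeing the data, 7 members were called lower at 5 than at 2 months and none at 10 against 5 months. These libraries were left out because the set was high in them, and the 1 library kept at 10 months is the one in which the rule required it to be low, so nothing is read from these counts. That lone library was assumed to vary like the others.

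**Figure D5:**
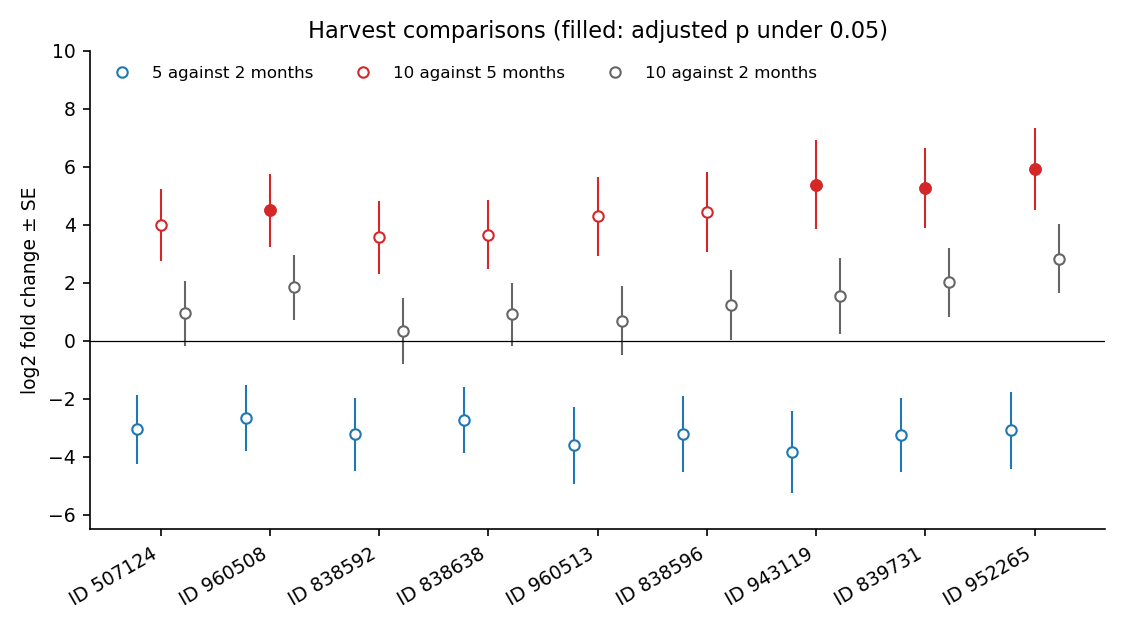
Log2 fold change with its SE for each member in the 3 harvest comparisons, from the fit on all 9 libraries with 3 per harvest; filled points passed an adjusted p under 0.05. All 9 lie below 0 at 5 against 2 months, at -2.66 or lower, and above 0 at 10 against 5 months, at 3.57 or higher, with 4 filled points among the latter.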

How the data were processed

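RNA-seq tables of 9 libraries, 3 at each of 3 harvests, were used as the authors deposited them. Per the file headers, each gives unique gene reads and total gene reads as counts, and RPKM, for the same 29375 JGI protein IDs. Total gene reads divided by the authors' RPKM and by the column sum gave a length in each library where a gene had reads. The median over those libraries was rounded to a whole number. Aligner and genome build: not given in the sources used here.

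The members, lists and tests were chosen with earlier results of these data known. Gene lists by product name were not formed, because the files pair no ID with a name. Normalised reads are unique reads divided by median-of-ratios size factors and scaled so that the mean library sums to 1000000. The rule for named genes took members with the highest level, the highest within-harvest ratios, the highest and lowest 5-month share and 5-month range, and the largest called differences, which covers all 9, plus the 2 members and 2 other genes nearest the limits. As the cap of 150 was not reached, nearness was taken as the smaller of the ratios, each divided by its limit. ID 974627 and the 2 genes below the required mean were named after their values were seen.

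Harvests were compared on unique reads with edgeR 4.0.16 in R 4.3.3 (TMM, filterByExpr, robust quasi-likelihood fit of all 9 libraries, no covariate, 6 residual degrees of freedom, Benjamini-Hochberg adjustment over 20168 genes). The SE is the size of the log2 fold change divided by the square root of F. The edgeR script was tested on simulated data: for 5 against 2 months with 20168 genes, it recovered 38% of 2-fold and 96% of 4-fold differences, and 8.84% of its calls were false. No pair of libraries within a harvest agreed within sampling noise (lowest chi-square per gene 79.1). The replicates are labelled biological. A count of 0 allows up to 3 reads, 0.0311 to 0.137 CPM by library, counting error only. Alternatives were other scalings, filters and thresholds, DESeq2 1.42.0, limma voom 3.58.1, total gene reads, a replicate block, and leaving out single libraries. Figures were drawn with matplotlib 3.10.9 in Python 3.11.15.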

Additional observations from a re-analysis of the deposited data

How the results depend on the processing

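The rule gave 7 to 11 genes under all alternatives but the minimum mean of 1, which gave 14, and all 9 members were kept except 1 lost under library totals alone, totals outside the set and the authors' RPKM each, and 2 under a minimum mean of 50. The ratio of the highest to the lowest 5-month library (median 1.95) ran from 1.24 to 1.95 when a 5-month library was left out. The count of members with all 5-month libraries lowest was 4, became 2 under library totals alone and under totals outside the set, and was 4 to 7 with a 5-month library left out.

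Members called at 5 against 2 months were 0, but 2 with at least 10 CPM in 3 libraries, 9 with DESeq2, 1 with limma voom, 7 without the 3 libraries rich in the set, and 0 to 9 when a single library was left out. At 10 against 5 months they were 4, but 1 with library totals alone, 0 with no low-count filter, 8 with at least 10 CPM in 3 libraries, 9 with DESeq2, 2 with limma voom, 0 without the 3 libraries, 2 with totals outside the set, and 0 to 9 with a library left out. At 10 against 2 months they were 0, but 1 with DESeq2, 1 without the 3 libraries and 0 to 2 with a library left out. Over the 3 harvests they were 3, but 1 with library totals alone, 0 with no filter, 7 with at least 10 CPM in 3 libraries, 9 with DESeq2, 7 without the 3 libraries, 1 with totals outside the set and 0 to 9 with a library left out. All genes called at 5 against 2 months (4180) became 2539 with at least 10 CPM in 3 libraries and 2772 to 4053 with a library left out. At 10 against 5 months (3657) they became 6110 with library totals alone, 797 without the 3 libraries and 2063 to 3982 with a library left out. Under library totals the all-gene median there was -0.57 (log2), with 584 of the called genes higher and 5526 lower, in place of 2005 and 1652. At 10 against 2 months (6685) they became 2212 without the 3 libraries and 4998 to 6775 with one left out. Over the 3 harvests (7746) they became 5099 with at least 10 CPM in 3 libraries, 3521 without the 3 libraries and 5985 to 7512 with one left out.

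Signs turned in 2 comparisons. Without the 3 libraries the log2 fold change at 10 against 5 months was -0.47 for ID 507124, -0.38 for ID 838592 and -0.061 for ID 838638. At 10 against 2 months it was then -2.16, -1.43, -1.99, -1.39, -1.46, -1.55, -1.44, -1.35 and -1.11 for IDs 507124, 960508, 838592, 838638, 960513, 838596, 943119, 839731 and 952265. These signs follow from the choice of libraries, since 10-month replicate 3 alone is then kept and the rule required it to be low, and nothing is read from the calls of those fits. ID 838592 was at -0.21 with library totals alone and -0.093 with totals outside the set. Without 10-month replicate 2 that comparison gave -0.26 for ID 507124, -0.86 for ID 838592, -0.37 for ID 838638, -0.50 for ID 960513 and -0.11 for ID 838596, and without 2-month replicate 3 it gave -0.15 for ID 838592. The highest values of these 5 with a library left out were 2.29, 1.95, 2.31, 2.49 and 2.78, without 2-month replicate 2. No sign turned at 5 against 2 months. Other causes were not tested.

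Replicate numbers did not pair the libraries: same-numbered libraries of different harvests had correlations of -0.39 to 0.17 in their deviations from the harvest mean, and 2 of 18 matched best with their own number. The replicate block gave 2, 3, 0 and 3 members called for 5 against 2, 10 against 5, 10 against 2 months and the 3 harvests, and 3113, 2581, 5686 and 6130 genes in all. Depth limits the 5-month values of IDs 839731 and 952265, which rest on as few as 19 reads.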
